A study of Homo sapiens with 8 samples.

Results

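The ephrin, semaphorin and plexin guidance genes are the Eph receptors, their ephrin ligands, the semaphorins of classes 3 to 7, the plexins and the neuropilins. They were taken by symbol from the deposited gene table, and 53 of 18902 analysed genes met the rule. The rule was chosen with earlier results of these data known, so it was not blind to the values. These were 14 Eph receptors, 8 ephrins, 20 semaphorins, 9 plexins and 2 neuropilins. The sequenced RNA came from 2 human hepatocellular carcinoma lines, MHCC-97H, which is known to metastasise readily, and MHCC-97L, which is known to do so less. Both were measured as they were and with stable Flag-OGT, in 4 groups of 2 libraries. Flag-OGT is full-length human O-GlcNAc transferase, the enzyme that puts single N-acetylglucosamine sugars on nuclear and cytosolic proteins, with a C-terminal 3×Flag tag. It was delivered in a lentiviral vector that also carries luciferase and a geneticin resistance gene, and cells were selected for that resistance. The sources used here do not give whether the selected cells were 1 clone or a pool, or whether cells without Flag-OGT held an empty vector. All groups were grown in DMEM with 10% fetal calf serum. The libraries without Flag-OGT are called controls below.

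Eph receptors are receptor tyrosine kinases that meet ephrins on a neighbouring cell, and both partners then signal into their own cells. A-type ephrins are held by a lipid anchor and B-type ephrins span the membrane, and receptors are named for the type they mainly bind. Plexins are the receptors of semaphorins, and neuropilins are co-receptors that most secreted class 3 semaphorins need and that also bind vascular endothelial growth factors. The families are known for guiding growing nerves and vessels, and in epithelial tumours for effects on cell contact, migration and vessel growth.

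Promoters are shown for members whose differences are described below. EFNA4, EFNA3 and EFNA1 lie side by side on chromosome 1 in that order, with 0 coding genes between them in the RefSeq annotation, and differed in direction or size between groups. EPHB6 had the lowest log2 difference of all members in MHCC-97H. The sequences are from RefSeq on GRCh38.p14, plus strand, 250 bases before the annotated start and 30 from it: EFNA4 at chr1:155063490-155063769, EFNA3 at chr1:155078587-155078866, EFNA1 at chr1:155127626-155127905 and EPHB6 at chr7:142862506-142862785. Capitals mark the 30 bases from the annotated start in the 3 ephrin genes. For EFNA4 and EFNA1 these bases occur in a GENCODE transcript of the gene, and for EFNA3 they do not. In EPHB6 the capitals mark a match to GGGAGGA, which begins 17 bases after the annotated start. Such G-rich letters are of the kind that the zinc-finger protein ZNF263, which the series studies with OGT, is known to bind. Whether ZNF263 binds there was not tested.
EFNA4: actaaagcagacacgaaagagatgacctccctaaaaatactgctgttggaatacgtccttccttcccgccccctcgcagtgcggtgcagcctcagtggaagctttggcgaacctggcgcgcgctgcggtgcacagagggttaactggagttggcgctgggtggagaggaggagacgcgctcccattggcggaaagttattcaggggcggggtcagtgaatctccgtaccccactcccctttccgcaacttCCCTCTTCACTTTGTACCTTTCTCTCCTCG
EFNA3: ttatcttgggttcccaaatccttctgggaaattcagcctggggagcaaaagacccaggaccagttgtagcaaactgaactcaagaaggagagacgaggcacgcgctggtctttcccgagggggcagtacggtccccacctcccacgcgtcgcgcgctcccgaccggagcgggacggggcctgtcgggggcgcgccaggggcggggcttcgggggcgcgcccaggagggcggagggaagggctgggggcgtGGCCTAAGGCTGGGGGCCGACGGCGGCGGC
EFNA1: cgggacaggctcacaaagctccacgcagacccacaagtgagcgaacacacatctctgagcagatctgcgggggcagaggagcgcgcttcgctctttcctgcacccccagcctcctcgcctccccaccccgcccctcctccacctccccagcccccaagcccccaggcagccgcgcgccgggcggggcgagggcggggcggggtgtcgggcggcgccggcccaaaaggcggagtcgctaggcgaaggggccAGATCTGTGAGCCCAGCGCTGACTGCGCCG
EPHB6: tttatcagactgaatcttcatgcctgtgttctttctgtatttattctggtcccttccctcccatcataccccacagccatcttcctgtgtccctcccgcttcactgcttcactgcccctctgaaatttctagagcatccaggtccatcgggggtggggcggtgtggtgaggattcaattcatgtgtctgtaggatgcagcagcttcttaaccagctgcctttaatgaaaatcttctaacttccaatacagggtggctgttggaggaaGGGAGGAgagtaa

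The EFNA4 stretch held 18 CpG pairs, those of EFNA3 and EFNA1 27 each and that of EPHB6 3. GGGAGGA was searched on both strands, with overlapping matches counted, in the table's 300-base windows. At least 1 promoter held a match in 11 of the 47 members with an entry, which is 23.4%, against 21.1% of all genes in the table. These members were EPHA5, EPHB1, EPHB6, SEMA3D, SEMA3E, SEMA4A, SEMA4F, SEMA5A, SEMA5B, SEMA6D and PLXNC1. By promoter, 13 of 74 held a match, 17.6% against 18.1% of all 35116. Members and other genes thus held these letters at near-equal rates, and 6 members had no entry. Of members with an entry that were lower with Flag-OGT in both lines by 2-fold or more, 1 of 12 held a match. Of those higher in both by 2-fold or more, 1 of 10 did.

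Levels are the deposited FPKM values, read fragments scaled to transcript length and library total, so they can be set side by side between genes. The reads behind them are unknown, and values are rounded to 2 decimals, so a gene listed at 0 may hold a few reads. Summed over all genes, the libraries held between 510449 and 613101 FPKM. OGT was at 32.53 and 34.16 in the MHCC-97H controls and at 59.04 and 58.38 with Flag-OGT, and at 45.73 and 43.9 against 50.95 and 54.54 in MHCC-97L. It rose in MHCC-97H by 0.80 on the log2 scale and in MHCC-97L by 0.23, and the second call was lost with median-of-ratios scaling, at 0.02 and adjusted p = 0.685. Reads of the transgene and of the cell's own gene are not separated in the table. The 4 Flag-OGT libraries stood apart from the controls in markers of the labelled cell type. The summed FPKM of 12 hepatocyte genes was 79.4 to 225 in controls and 1.91 to 5.56 with Flag-OGT. Of 9 tested, 8 fell in MHCC-97H and 9 in MHCC-97L, and TTR was listed at 0 in every Flag-OGT library. Over all tested genes, 36.3% were lower and 48.2% higher in MHCC-97H, and 34.7% and 50.1% in MHCC-97L. HNF4A, a defining liver transcription factor, was at 13.4 to 14.63 in controls and 0.01 to 0.04 with Flag-OGT. Of 5 simple epithelium markers, 4 were tested and all 4 fell in both lines, from a sum of 5674 to 6619 to a sum of 19.1 to 29.8. Summed levels of the lists of other cell types differed too, though genes within a list could go both ways. The neuronal sum was 58.4 to 179 in controls and 26.9 to 34.4 with Flag-OGT, with 3 of 5 tested genes higher and 2 lower in each line. TUBB3 alone was at 53.06 to 172.6 in controls and 3.77 to 11.66 with Flag-OGT. The endothelial sum was 33.5 to 46.4 against 0.66 to 1.57, with all 3 tested genes lower. ESAM alone was at 26.51 to 37.17 against 0.5 to 1.15. CDH5 and TEK, listed at 0 with Flag-OGT, were at 0 to 0.06 and 0.02 to 0.03 in controls. The fibroblast sum was 4.54 to 12.2 against 14.6 to 20.9, with 2 of 3 tested genes higher and 1 lower. LUM was at 4 to 11.52 in controls and 0 to 0.08 with Flag-OGT, and ACTA2 at 0 to 0.16 against 8.28 to 16.01. COL1A2, at 0 with Flag-OGT, was at 0 to 0.04 in controls. The leukocyte sum was 69 to 82.5 against 2.75 to 8.7, with 2 of 3 tested genes lower in each line and 1 higher in MHCC-97L. CD68 alone was at 63.43 to 79.8 against 0.97 to 2.38. CD3E, at 0 with Flag-OGT, was at 0 to 0.04 in controls. KRT8, a keratin of simple epithelia, was at 3735.01 to 4140.38 in controls and 5.62 to 12.03 with Flag-OGT. Whether the libraries labelled Flag-OGT come from the same lines as their controls was not tested, and a difference of cell line and an effect of Flag-OGT cannot be told apart in these comparisons. Below, rose and fell mean only higher and lower in the libraries labelled Flag-OGT. What these shifts contribute to any guidance gene was not tested. Since every Flag-OGT library is concerned, leaving them out leaves only the comparison of the control lines, given near the end. In bulk RNA, fewer cells of a type and less RNA per cell cannot be told apart.

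The repertoire of guidance genes was broader and lower in sum with Flag-OGT. At 1 FPKM or more in both libraries were 25 of 53 members in MHCC-97H controls and 40 with Flag-OGT, and 29 and 37 in MHCC-97L. Counted per library, 11044 and 11055 of all 18902 genes reached 1 FPKM in MHCC-97H controls, and 11711 and 11735 with Flag-OGT. In MHCC-97L 11630 and 11607 did so in controls, and 11923 and 11958 with Flag-OGT. The members' summed level went the other way, at 516 ± 24.7 FPKM (SD, n = 2) in MHCC-97H controls against 382 ± 2.43. In MHCC-97L it was 570 ± 6.64 against 281 ± 5.91. PLXND1 was the highest member in each control library, at 69.4 to 98.08 FPKM, and PLXNB2 in each Flag-OGT library, at 36.68 to 59.32.

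**Figure D1:**
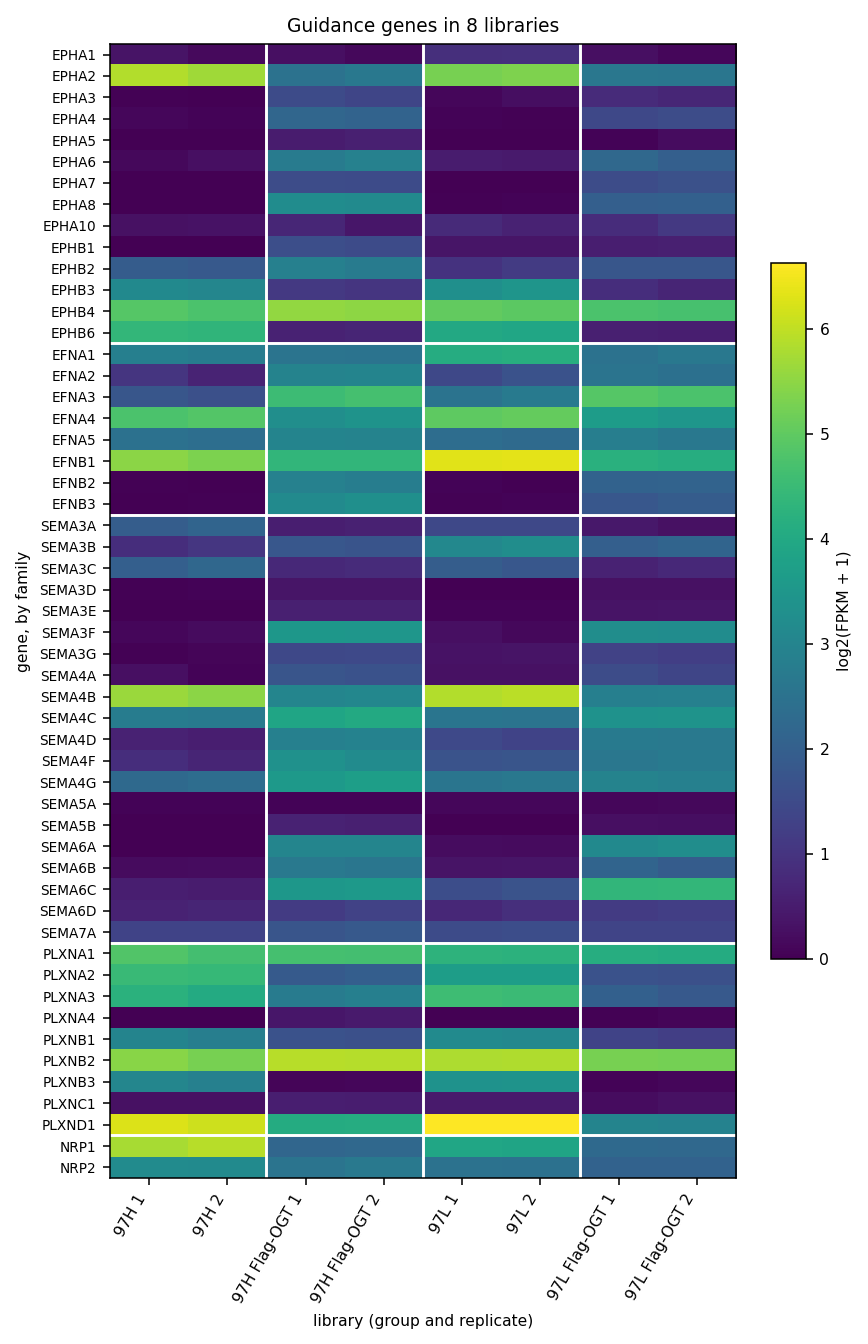
Each row is 1 of 53 guidance genes, each column 1 of 8 libraries, and colour is log2(FPKM + 1). White lines divide the groups and the families. Rows such as EPHA8, EFNB3, SEMA3F and SEMA6A are dark in the control columns and lighter in the Flag-OGT columns, while EPHB6, SEMA4B, PLXNB3 and NRP1 are the reverse.

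Differences were tested on log2(FPKM + 1) with limma over all 13553 genes whose mean reached 0.5 FPKM, and a gene was called at an adjusted p under 0.05. Nothing in the sources used here says that the 2 libraries of a group came from separate cultures, so the p-values reflect the spread of these libraries alone, and it may be technical. Exons of 14 members overlap another annotated gene, in 10 of them on the opposite strand (EPHA4, EPHA5, EPHB2, EFNB2, SEMA4G, SEMA5A, SEMA6A, PLXNA3, NRP1 and NRP2), and it is not stated whether the counting used strand. Of the 53 members 45 were tested. Of these, 14 reach that mean through the Flag-OGT libraries alone and 2 through the controls alone, so the filter favours a difference in them, and their differences and all counts that follow are a description. The 14 are EPHA3, EPHA4, EPHA6, EPHA7, EPHA8, EPHA10, EPHB1, EFNB2, EFNB3, SEMA3F, SEMA3G, SEMA4A, SEMA6A and SEMA6B, and the 2 are SEMA3A and PLXNB3. In MHCC-97H 27 members were higher with Flag-OGT, 16 lower and 2 not called. The shares over all tested genes were 48.2% higher and 36.3% lower, so most genes of the table were called. At 2-fold or more 20 members were higher and 14 lower, where the shares over all tested genes were 22.3% and 16%. In MHCC-97L 23 members were higher, 21 lower and 1 not called, where 50.1% and 34.7% of all tested genes were called. At 2-fold or more 13 were higher and 16 lower, against shares of 18.6% and 16.1%. The median difference of the tested members was 0.71 in MHCC-97H and 0.25 in MHCC-97L, and that of all tested genes 0.15 and 0.19. With median-of-ratios scaling the median of all genes was -0.00 and 0.02, and members were 27 higher and 17 lower in MHCC-97H and 21 and 21 in MHCC-97L. No called member changed sign under any of 3 scalings in these comparisons. By pattern, 23 members were higher in both lines, 16 lower in both, and 4 higher in MHCC-97H and lower in MHCC-97L. The share of all tested genes with each pattern was not computed, so these pattern counts have no background beside them. PLXNA1 was called in MHCC-97L only, and EPHA10 in neither.

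**Figure D2:**
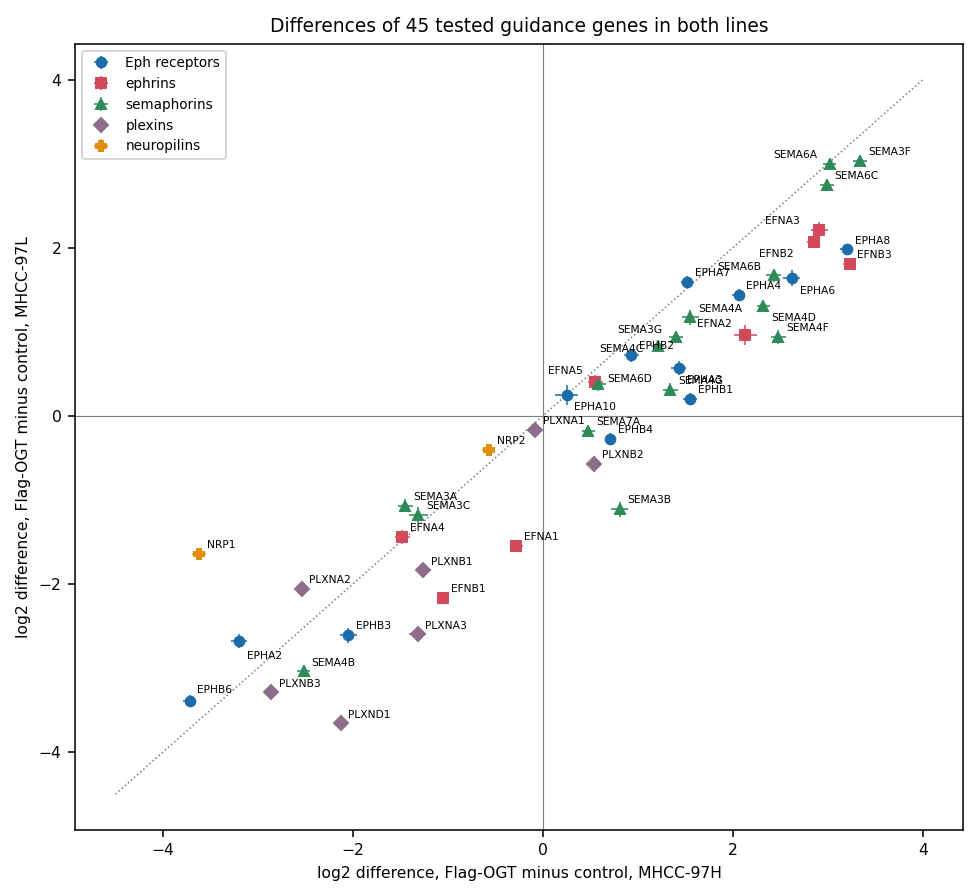
Each point is 1 of 45 tested guidance genes, with the log2 difference between Flag-OGT and control libraries in MHCC-97H on the x axis and in MHCC-97L on the y axis. Bars are limma standard errors, marker and colour give the family, and the dotted line marks equal differences. Plexins lie at or below 0 in MHCC-97L, class 6 semaphorins are all above 0 in both lines, and NRP1 lies far above the line at -3.62 and -1.64.

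Among the EphA receptors, 1 gene held nearly all of the family's FPKM in controls and several shared a lower total with Flag-OGT. EPHA2, an epithelial receptor often raised in carcinomas, made up 98.8% of the summed EphA level in MHCC-97H controls and 94.8% in MHCC-97L controls. It was at 57.76 and 50.47 FPKM in MHCC-97H controls and 4.7 and 5.32 with Flag-OGT. In MHCC-97L it was at 37.39 and 39.4 against 5.22 and 5.08. The groups did not overlap in either line. EPHA2 fell by 3.20 ± 0.08 (SE) on the log2 scale in MHCC-97H, adjusted p = 1.0e-10, and by 2.68 ± 0.08 in MHCC-97L, adjusted p = 4.3e-10. Its mean was 10.8-fold and 7.46-fold lower.

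The EphA receptors that rose were near 0 in controls. EPHA8 was listed at 0 in both MHCC-97H controls, against 8.27 and 8.05 FPKM with Flag-OGT, and at 0.02 and 0.04 against 3 and 3.12 in MHCC-97L. EPHA6 was at 0.11 and 0.21 against 5.78 and 6.49 in MHCC-97H, and at 0.41 and 0.4 against 3.75 and 3.05 in MHCC-97L. Both were high in every Flag-OGT library and low in every control. EPHA8 rose by 3.20 ± 0.07 and 1.98 ± 0.07 on the log2 scale in the 2 lines, and EPHA6 by 2.62 ± 0.09 and 1.64 ± 0.09. EPHA4, which binds ephrins of both types, was at 0.02 to 0.08 in controls and 1.7 to 3.58 with Flag-OGT. EPHA7 was listed at 0 in all 4 controls and stood at 1.86 to 2.13 with Flag-OGT. EPHA3 was at 0 to 0.18 against 0.63 to 1.84, so all 5 of these receptors rose in both lines. All 5 reach the filter through the Flag-OGT libraries alone, so their rise is given as a description. At 1 FPKM or more were EPHA2 alone in each control group, 6 of 9 EphA receptors in MHCC-97H with Flag-OGT and 5 of 9 in MHCC-97L with Flag-OGT. The summed EphA level nevertheless was lower with Flag-OGT, 27.4 ± 0.134 FPKM against 54.8 ± 5.2 (SD, n = 2) in MHCC-97H and 17.3 ± 0.0495 against 40.5 ± 1.36 in MHCC-97L. EPHA8 was then the leading EphA receptor of MHCC-97H, at 29.7% of the sum, while EPHA2 still led in MHCC-97L, also at 29.7%. EPHA10, which lacks an active kinase, was at 0.23 to 1.13 in all libraries and was not called. EPHA1 and EPHA5 did not reach the filter, at 0.08 to 0.88 and 0 to 0.49 FPKM.

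**Figure D3:**
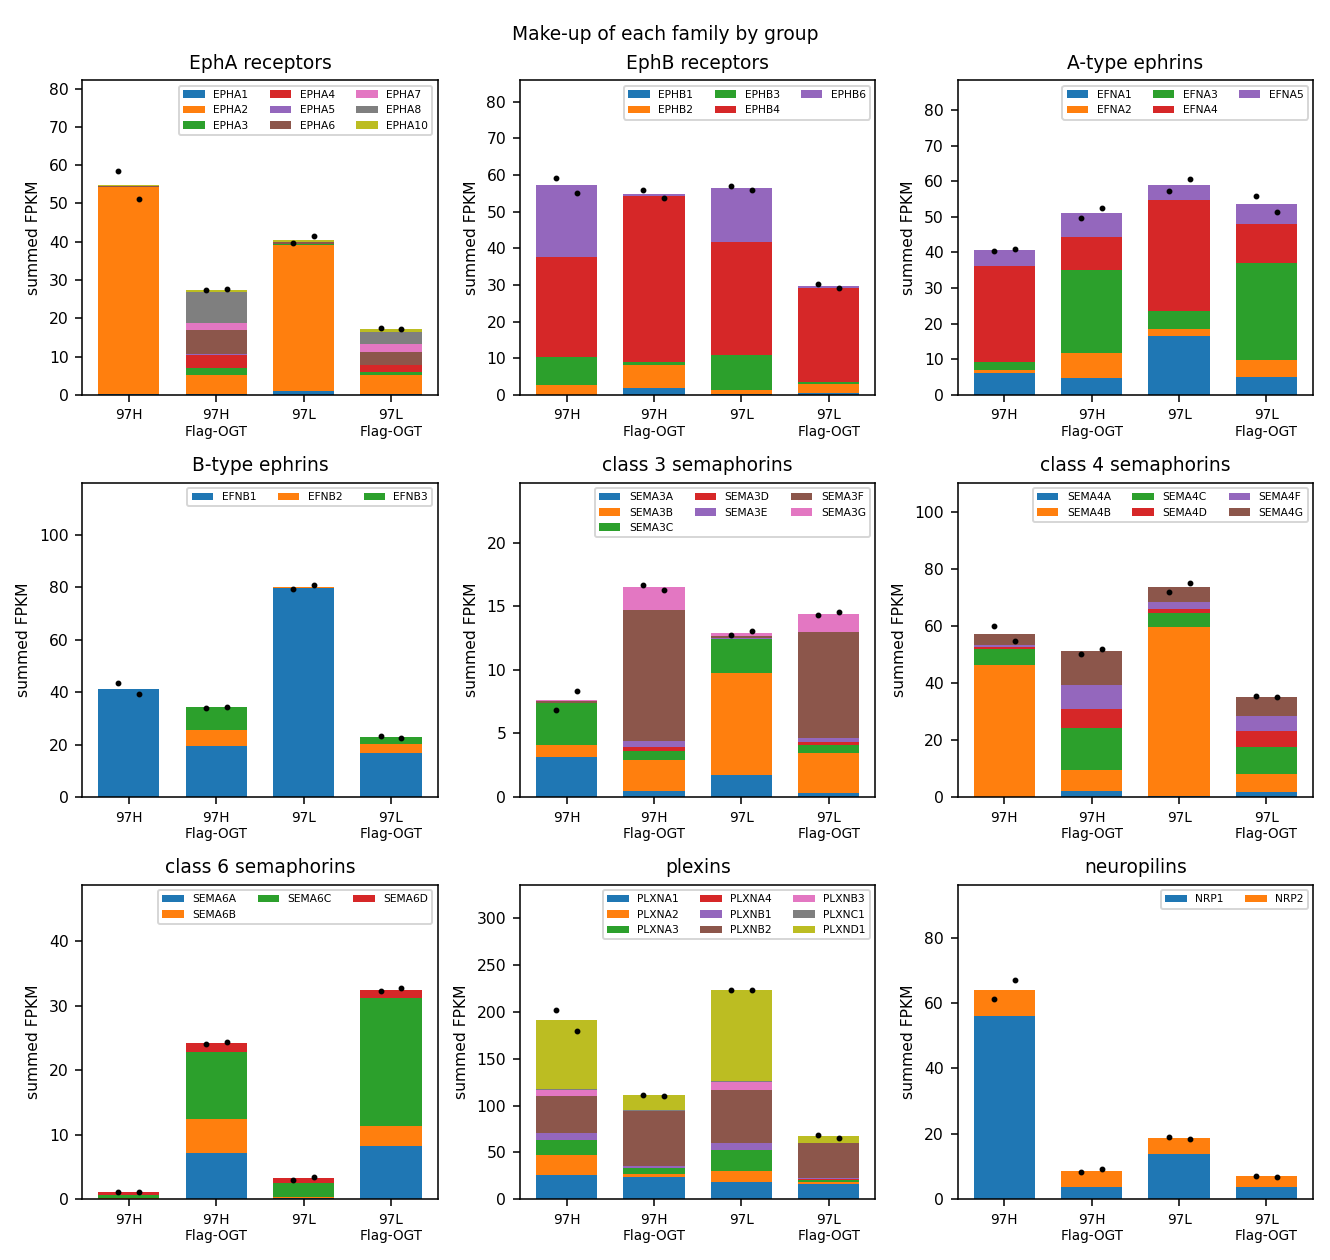
Each panel is a family or class, each bar a group, and bar height is the summed FPKM, the mean of 2 libraries, split by gene, with points for the 2 libraries. EPHA2 fills the EphA bars of the controls, EFNA4 gives way to EFNA3 among A-type ephrins, and the class 6 semaphorin bars are 1.19 and 3.29 FPKM in controls and 24.2 and 32.5 with Flag-OGT.

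The EphB receptors split by member and by line. EPHB6, which has no active kinase, was at 20.1 and 19.23 FPKM in MHCC-97H controls and 0.54 and 0.6 with Flag-OGT, and at 15.14 and 14.17 against 0.51 and 0.47 in MHCC-97L. EPHB3 was at 7.91 and 7.26 against 1.13 and 1.02, and at 8.85 and 9.98 against 0.81 and 0.61. Both were low in every Flag-OGT library. EPHB6 fell by 3.72 ± 0.07 and 3.39 ± 0.07 on the log2 scale, adjusted p = 1.3e-11 and 3.0e-11, and EPHB3 by 2.05 ± 0.09 and 2.61 ± 0.09. EPHB4, the receptor of ephrin-B2 known from veins, was the highest EphB receptor in every group. It stood at 28.44 and 26.07 in MHCC-97H controls and 45.78 and 44.43 with Flag-OGT, but at 31.64 and 30.28 against 25.88 and 25.08 in MHCC-97L. It thus was high with Flag-OGT in 1 line and low in the other, with no overlap in either. EPHB4 rose by 0.71 ± 0.06 in MHCC-97H and fell by 0.27 ± 0.06 in MHCC-97L, and the difference between the lines was 0.98 ± 0.09, adjusted p = 8.6e-06. EPHB2 was at 2.83 and 2.6 against 6.34 and 5.8 in MHCC-97H, and at 0.95 and 1.21 against 2.44 and 2.4 in MHCC-97L. Its mean was 2.24-fold higher with Flag-OGT in both lines. EPHB1 was at 0 to 0.01 against 1.87 to 2.02 in MHCC-97H and at 0.29 to 0.3 against 0.47 to 0.51 in MHCC-97L. Its difference was 1.55 ± 0.07 and 0.20 ± 0.07, a description since it reaches the filter through the Flag-OGT libraries alone. The MHCC-97L call of EPHB1 was lost with median-of-ratios scaling, adjusted p = 0.0718, with quantile normalization, adjusted p = 0.217, and without replicate 2 of the MHCC-97L controls, adjusted p = 0.0592.

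Among the A-type ephrins, the neighbours EFNA4, EFNA3 and EFNA1 moved apart. EFNA3 was at 2.43 and 2.08 FPKM in MHCC-97H controls and 22.44 and 24.48 with Flag-OGT, and at 4.8 and 5.47 against 28.6 and 26.04 in MHCC-97L. EFNA4 was at 26.07 and 28.18 against 8.64 and 9.54, and at 30.45 and 32.24 against 11.61 and 10.22. EFNA3 was high where EFNA4 was low in all 4 groups, and no groups overlapped between control and Flag-OGT. EFNA3 rose by 2.91 ± 0.09 and 2.21 ± 0.09 on the log2 scale, and EFNA4 fell by 1.48 ± 0.08 and 1.44 ± 0.08. EFNA4 held 66.7% of the A-type ephrin sum in MHCC-97H controls and 53.2% in MHCC-97L controls. With Flag-OGT EFNA3 held 45.9% and 51%. EFNA1, the main ligand of EPHA2, was at 6.22 and 5.95 against 4.86 and 4.8 in MHCC-97H, and at 16.08 and 16.77 against 4.64 and 5.27 in MHCC-97L. It fell by 0.28 ± 0.07 and by 1.55 ± 0.07, a difference between lines of 1.27 ± 0.10, adjusted p = 4.9e-06. The exons of EFNA3 and EFNA4 both overlap those of AL691442.1, annotated as a coding gene on the same strand, and the sources used here do not give how such reads were shared out.

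EFNA2 was at 1.04 and 0.57 FPKM in MHCC-97H controls and 6.77 and 6.89 with Flag-OGT, and at 1.69 and 2.2 against 4.9 and 4.49 in MHCC-97L. EFNA5 was at 4.54 and 4.23 against 6.92 and 6.8, and at 4.18 and 3.94 against 6.17 and 5.25. Both A-type ephrins rose in both lines, EFNA2 by 2.13 ± 0.12 and 0.96 ± 0.12 and EFNA5 by 0.55 ± 0.08 and 0.40 ± 0.08. Of the B-type ephrins, EFNB1 alone was expressed in controls, with 99.9% of the family's sum in both lines. It was at 43.6 and 39.12 in MHCC-97H controls and 19.43 and 19.46 with Flag-OGT, and at 79.15 and 80.69 against 17.36 and 16.54 in MHCC-97L. It fell by 1.05 ± 0.06 and 2.17 ± 0.06. EFNB2, the partner of EPHB4, was at 0.01 to 0.04 in the controls, 6.56 and 6.07 in MHCC-97H with Flag-OGT and 3.27 and 3.34 in MHCC-97L with Flag-OGT. EFNB3 was at 0 to 0.05 in the controls and at 8.08 and 8.83, and 2.51 and 2.8. EFNB2 and EFNB3 thus passed 1 FPKM only with Flag-OGT, and EFNB1 in every library. EFNB2 rose by 2.85 ± 0.07 and 2.07 ± 0.07, and EFNB3 by 3.23 ± 0.07 and 1.81 ± 0.07. Both reach the filter through the Flag-OGT libraries alone, so these differences are a description.

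The class 6 semaphorins, membrane ligands of class A plexins, were higher with Flag-OGT. Their summed level was 1.19 ± 0.00707 FPKM (SD, n = 2) in MHCC-97H controls and 24.2 ± 0.276 with Flag-OGT, 20.4-fold higher, and 3.29 ± 0.332 against 32.5 ± 0.332 in MHCC-97L, 9.85-fold higher. All 4 members were called higher in both lines, where 48.2% and 50.1% of all tested genes were, and SEMA6A and SEMA6B passed the filter through the Flag-OGT libraries alone. SEMA6A was at 0.01 and 0 in MHCC-97H controls and 7.13 and 7.12 with Flag-OGT, and at 0.16 and 0.14 against 7.92 and 8.46 in MHCC-97L. SEMA6C was at 0.48 and 0.41 against 10.31 and 10.71, and at 1.97 and 2.24 against 19.71 and 20.05. SEMA6B was at 0.15 and 0.17 against 5.37 and 5.11, and at 0.27 and 0.3 against 3.36 and 2.84. Each of these 3 was high in all Flag-OGT libraries. SEMA6A rose by 3.02 ± 0.07 and 3.00 ± 0.07 on the log2 scale, SEMA6C by 2.99 ± 0.07 and 2.75 ± 0.07, and SEMA6B by 2.43 ± 0.08 and 1.67 ± 0.08. SEMA6D was at 0.54 to 0.85 in controls and 1.22 to 1.48 with Flag-OGT.

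The secreted class 3 semaphorins changed their leading member. SEMA3F, a ligand of NRP2, was at 0.09 and 0.15 FPKM in MHCC-97H controls and 10.47 and 10.13 with Flag-OGT, and at 0.2 and 0.1 against 8.47 and 8.34 in MHCC-97L. Its difference was 3.34 ± 0.07 and 3.03 ± 0.07 on the log2 scale, given as a description since it passed the filter through the Flag-OGT libraries alone, and it then held 62.5% and 58.2% of the class 3 sum. SEMA3A, a ligand of NRP1 that repels axons, was at 1.69 to 3.38 in controls and 0.24 to 0.52 with Flag-OGT, and SEMA3C, a ligand of both neuropilins, at 2.46 to 3.63 against 0.54 to 0.76. Both fell in both lines, by 1.45 and 1.07 for SEMA3A and by 1.31 and 1.18 for SEMA3C. SEMA3G was at 0.03 to 0.27 against 1.35 to 1.78 and rose in both lines. SEMA3A reaches the filter through the controls alone and SEMA3G through the Flag-OGT libraries alone, so their differences are a description. SEMA3B, known as a candidate tumour suppressor, was at 0.83 and 1.06 in MHCC-97H controls and 2.51 and 2.31 with Flag-OGT, but at 7.6 and 8.51 against 3 and 3.39 in MHCC-97L. The 2 control lines lay on either side of the Flag-OGT libraries. SEMA3B rose by 0.81 ± 0.09 in MHCC-97H and fell by 1.11 ± 0.09 in MHCC-97L, a difference of 1.92 ± 0.13, adjusted p = 1.5e-06. SEMA3B and SEMA3F lie close together on chromosome 3, with 3 coding genes between them in RefSeq order. SEMA3D and SEMA3E did not reach the filter, at 0 to 0.3 and 0 to 0.5 FPKM.

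Of the membrane-bound class 4 semaphorins, SEMA4B fell and the other 5 rose in both lines. Over all tested genes 48.2% were higher in MHCC-97H and 50.1% in MHCC-97L. At 2-fold or more 5 were higher in MHCC-97H and 2 in MHCC-97L, with shares of 22.3% and 18.6% over all tested genes. SEMA4B was at 48.59 and 43.65 FPKM in MHCC-97H controls and 7.08 and 7.36 with Flag-OGT, and at 57.78 and 60.62 against 6.28 and 6.36 in MHCC-97L. It held 80.6% of the class sum in the controls of both lines, and fell by 2.52 ± 0.07 and 3.04 ± 0.07 on the log2 scale. SEMA4C, a ligand of PLXNB2, was at 5.93 and 5.57 against 14.01 and 15.28, and at 5 and 4.89 against 9.41 and 9.68. SEMA4D, a ligand of PLXNB1 known from lymphocytes, was at 0.56 and 0.48 against 6.42 and 6.71, and at 1.77 and 1.53 against 5.69 and 5.44. SEMA4C became the leading member with Flag-OGT, at 28.7% and 27.2% of the class sum. SEMA4F was at 0.84 and 0.62 against 9.15 and 8.19, and at 2.25 and 2.35 against 5.23 and 5.47. SEMA4G was at 3.8 and 4.2 against 11.12 and 12.19, and at 4.94 and 5.29 against 6.78 and 6.43. In all 4 the rise was larger in MHCC-97H, by 0.39 ± 0.10 for SEMA4C, 1.01 ± 0.11 for SEMA4D, 1.54 ± 0.12 for SEMA4F and 1.02 ± 0.11 for SEMA4G, each called. The MHCC-97L call of SEMA4G was lost with median-of-ratios scaling, at 0.13 and adjusted p = 0.121, and its exons overlap those of MRPL43. SEMA4A was at 0.05 to 0.24 in controls and 1.63 to 2.37 with Flag-OGT. It reaches the filter through the Flag-OGT libraries alone, so its rise is a description. SEMA7A, a lipid-anchored ligand of PLXNC1, was at 1.51 to 1.96 in controls and 1.55 to 2.63 with Flag-OGT, called higher in MHCC-97H and lower in MHCC-97L. That MHCC-97L difference, -0.18 with adjusted p = 0.0324, was lost when any 1 of the 4 MHCC-97L libraries was left out, at -0.15 and adjusted p = 0.148 without replicate 2 of the controls. SEMA5A and SEMA5B stayed under the filter, at 0.05 to 0.11 and 0 to 0.54.

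Plexins are the semaphorin receptors. Their summed level was 191 ± 15.2 FPKM (SD, n = 2) in MHCC-97H controls and 111 ± 0.41 with Flag-OGT, and 224 ± 0.141 against 67 ± 1.74 in MHCC-97L. Of 7 tested plexins 5 fell and 1 rose in MHCC-97H, and all 7 fell in MHCC-97L, where 36.3% and 34.7% of all tested genes were lower. With median-of-ratios scaling PLXNA1 was called lower in MHCC-97H as well. PLXND1, a plexin of blood vessels that SEMA3E can bind without a neuropilin, was at 77.33 and 69.4 in MHCC-97H controls and 15.85 and 16.07 with Flag-OGT, and at 97.17 and 98.08 against 6.95 and 6.71 in MHCC-97L. It fell by 2.13 ± 0.06 and 3.66 ± 0.06 on the log2 scale, and its mean was 4.6-fold and 14.3-fold lower. PLXNB3, a receptor of SEMA5A, was at 7.31 and 6.35 against 0.07 and 0.09, and at 9.36 and 9.51 against 0.05 and 0.08. It was near 0 in every Flag-OGT library, and fell by 2.86 ± 0.08 and 3.29 ± 0.08. PLXNB3 reaches the filter through the controls alone, so its fall and the plexin counts above are a description. Its exons overlap SRPK3 on the same strand.

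PLXNA2 was at 21.73 and 20.9 FPKM in MHCC-97H controls and 2.7 and 2.97 with Flag-OGT, and at 11.97 and 11.99 against 2.17 and 2.07 in MHCC-97L. PLXNA3, a receptor of class 3 semaphorins with neuropilins, was at 17.83 and 15.49 against 5.79 and 6.29, and at 22.77 and 21.87 against 3.08 and 2.61. PLXNB1 was at 6.89 and 6.09 against 2.17 and 2.07, and at 7.94 and 7.49 against 1.52 and 1.35. All 3 were low in every Flag-OGT library and fell in both lines, PLXNA2 by 2.54 ± 0.07 and 2.06 ± 0.07. PLXNB2 was at 42.64 and 37.49 against 59.32 and 57.98 in MHCC-97H, but at 55.51 and 56.19 against 37.91 and 36.68 in MHCC-97L. It rose by 0.54 ± 0.06 and fell by 0.57 ± 0.06, a difference between lines of 1.11 ± 0.09, adjusted p = 5.9e-06. PLXNA1 was at 27.54 and 23.99 against 24.34 and 24.15 in MHCC-97H, where the groups overlapped, and at 18.39 and 18.19 against 16.37 and 15.99 in MHCC-97L. Its MHCC-97L difference was -0.17 ± 0.07, adjusted p = 0.0429, and was lost in 6 of the 8 fits without 1 library, where adjusted p reached 0.139. It was also lost with no filter on low values, with quantile normalization and with no mean-variance trend, at adjusted p = 0.0613, 0.0557 and 0.0529. PLXNA4 was listed at 0 in all controls and stood at 0.03 to 0.4 with Flag-OGT, and PLXNC1 was at 0.17 to 0.48, both under the filter.

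NRP1, the co-receptor of SEMA3A and of vascular endothelial growth factor, was at 53 and 58.97 FPKM in MHCC-97H controls and 3.57 and 3.72 with Flag-OGT, and at 14.28 and 13.74 against 3.84 and 3.76 in MHCC-97L. NRP2 was at 8.19 and 8.01 against 4.85 and 5.45, and at 4.66 and 4.58 against 3.23 and 3.21. Both fell in both lines with no overlap. NRP1 fell by 3.62 ± 0.07 and 1.64 ± 0.07 on the log2 scale, and NRP2 by 0.57 ± 0.07 and 0.41 ± 0.07. NRP1 held 87.4% of the neuropilin sum in MHCC-97H controls and 41.4% with Flag-OGT.

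Set side by side, known ligand and receptor pairs moved in the same or in opposite directions. EPHA2 and its ligand EFNA1 both fell in both lines, as did SEMA3A and NRP1. For SEMA3F and NRP2 the ligand rose and the co-receptor fell, and the same held for SEMA4D and PLXNB1. EFNB2 rose in both lines, while EPHB4 rose in MHCC-97H and fell in MHCC-97L. SEMA4C rose in both lines, while PLXNB2 rose in MHCC-97H and fell in MHCC-97L. These pairs were picked from general knowledge after the values were seen.

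The Flag-OGT difference, with its sign, was itself compared between lines. It was more positive in MHCC-97H for 29 of 45 members and more negative for 5, where 33.9% and 29.4% of all tested genes were called. A more positive value is a larger rise for some members and a smaller fall for others, such as PLXND1. NRP1, among the 5, fell further in MHCC-97H. At 2-fold or more 13 members were higher and 1 lower, with shares of 9.08% and 3.31% over all tested genes. The median was 0.56 for members and 0.02 for all tested genes. The only member past 2-fold in the lower direction was NRP1, at -1.97 ± 0.10, adjusted p = 2.6e-07. PLXND1 was at 1.52 ± 0.09, adjusted p = 6.3e-07, and its mean with Flag-OGT was 16 FPKM in MHCC-97H and 6.83 in MHCC-97L. By family, 7 of 12 Eph receptors, 6 of 8 ephrins, 11 of 16 semaphorins and 5 of 7 plexins were higher in this comparison. Of the class 6 semaphorins SEMA6B was called, at 0.76, and SEMA6A, SEMA6C and SEMA6D were not, at 0.02, 0.24 and 0.19.

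**Figure D4:**
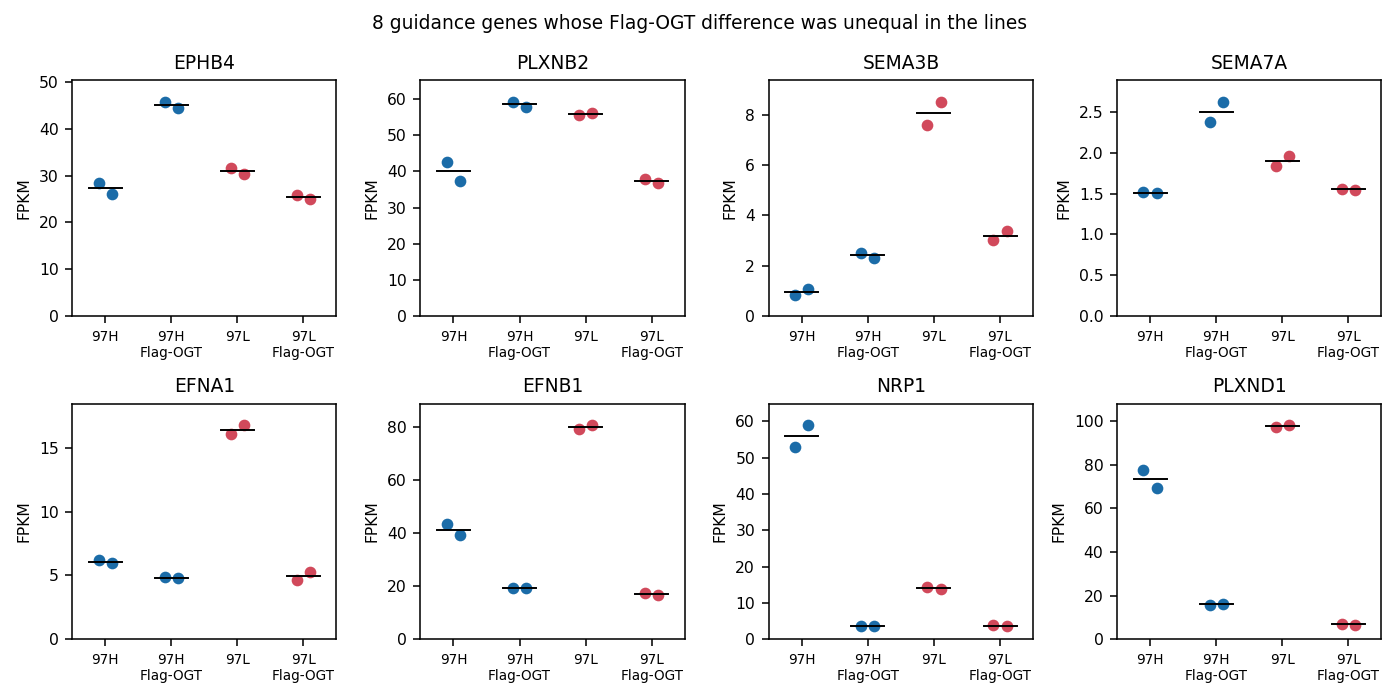
FPKM of 8 guidance genes in every library, blue for MHCC-97H and red for MHCC-97L, with a bar at each mean and all axes from 0. EPHB4, PLXNB2, SEMA3B and SEMA7A were higher with Flag-OGT in MHCC-97H and lower in MHCC-97L, and EFNA1, EFNB1 and NRP1 differ between the controls by more than between the Flag-OGT libraries.

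The control lines share their libraries with the comparisons above, and 33 of 45 members differed between them. In MHCC-97H controls 9 members were higher than in MHCC-97L and 24 lower, where 26.5% and 38.9% of all tested genes were called. With median-of-ratios scaling the members were 11 and 18, and all genes went from 3589 higher and 5270 lower to 4937 and 4106. With only the 4 control libraries in the fit, 8 members were higher and 22 lower. At 2-fold or more 1 was higher and 3 lower, against shares of 2.19% and 5.45%, and without replicate 1 of the MHCC-97H controls 5 were lower. The member higher was NRP1, 4-fold by its mean, at a difference of 1.92 ± 0.07. Those lower were SEMA3B at -2.22 ± 0.09, EFNA1 at -1.30 ± 0.07 and SEMA6C at -1.10 ± 0.07. EFNB1, at -0.94 ± 0.06, was just under that limit. PLXNA2 was 1.78-fold and SEMA3A 1.82-fold higher in MHCC-97H controls by their means.

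Between the Flag-OGT lines, 31 members were higher in MHCC-97H and 5 lower, where 33.6% and 36.1% of all tested genes were called. Without replicate 1 of MHCC-97H with Flag-OGT 3 members were lower, and 2 without its replicate 2 or without replicate 2 of MHCC-97L with Flag-OGT. With median-of-ratios scaling the members were 31 and 2, and all genes went from 4551 higher and 4894 lower to 5679 and 3760. At 2-fold or more 4 were higher and 0 lower, against shares of 4.24% and 3.59%. They were EFNB3 at 1.37 ± 0.07, EPHA8 at 1.17 ± 0.07, PLXND1 at 1.12 ± 0.06 and EPHB2 at 1.05 ± 0.08. NRP1 at -0.05 ± 0.07, EFNA1 at -0.03 ± 0.07 and EPHA2 at -0.04 ± 0.08 were not called, although each differed between the controls, EPHA2 by 0.48 ± 0.08. Of the 5 members lower in MHCC-97H, SEMA6C had the largest difference, at -0.86 ± 0.07.

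Genes that work with these families were described by 3 lists, which were also chosen with earlier results of these data known. Of 17 tested Eph and ephrin signalling partners, 9 were higher and 6 lower in MHCC-97H and 8 and 8 in MHCC-97L, with medians of 0.40 and -0.07 beside 0.15 and 0.19 for all tested genes. Over all tested genes 48.2% were higher and 36.3% lower in MHCC-97H, and 50.1% and 34.7% in MHCC-97L. At 2-fold or more 6 partners were higher and 6 lower in MHCC-97H, where 22.3% and 16% of all tested genes were. In MHCC-97L these partners were 2 and 6, against shares of 18.6% and 16.1%. TIAM1, a Rac exchange factor that binds Eph receptors and ephrins, was at 0 to 0.02 FPKM in controls and 5.84 to 9.11 with Flag-OGT. PTPN13, a phosphatase that binds B-type ephrins, was at 0 to 0.01 against 3.51 to 5.35. TIAM1 and PTPN13 reach the filter through the Flag-OGT libraries alone, so the counts of this list are a description. RGS3, which B-type ephrins recruit, fell by 2.22 and 3.36 on the log2 scale, and SDCBP, the scaffold syntenin, by 2.14 and 1.62. ARHGEF16, an exchange factor bound to EPHA2, fell by 2.83 and 3.12. NGEF, the exchange factor ephexin, was at 4.34 and 4.08 against 16.84 and 15.15 in MHCC-97H, where it was called, and at 6.73 and 6.49 against 6.48 and 6.02 in MHCC-97L, where it was not, at adjusted p = 0.386. ITSN1 rose by 1.01 and 0.98, and KALRN fell by 1.12 and 2.60; both are exchange factors downstream of EphB receptors.

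Of 26 tested semaphorin, plexin and neuropilin partners, 12 were higher and 13 lower in MHCC-97H, and 11 and 13 in MHCC-97L, with medians of -0.34 and -0.15 beside 0.15 and 0.19 for all tested genes. The shares over all tested genes were 48.2% and 36.3%, and 50.1% and 34.7%. MET, the hepatocyte growth factor receptor that pairs with B plexins, was at 503.99 to 896.93 FPKM in controls and 3.16 to 5.92 with Flag-OGT. ITGB1, the integrin chain that SEMA7A binds, was at 89.2 to 184.46 against 15.23 to 18. RRAS, a small GTPase that plexins switch off, fell by 1.69 and 1.96, and MICAL2, an enzyme that oxidises actin, by 2.06 and 1.69. FYN, a kinase in SEMA3A signalling, was at 0.06 to 0.2 against 44.77 to 48.78. DPYSL5, a collapsin response mediator of the nervous system, was at 0.1 to 0.24 against 18.3 to 36.91, and its relative DPYSL4 rose by 2.86 and 2.60. SH3BP1, a Rac inactivator bound to plexins, rose by 3.02 and 2.48. Both ends of the list thus held large differences, while its median lay below that of all tested genes. FYN, DPYSL5 and CD72 reach the filter through the Flag-OGT libraries alone and KDR through the controls alone, so these counts are a description.

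Of the netrin, Slit, Robo and repulsive guidance families, 22 of 23 listed genes had values and 12 were tested. In MHCC-97H 10 were higher and 1 lower, and in MHCC-97L 11 and 1, with medians of 1.94 and 1.37 beside 0.15 and 0.19 for all tested genes. Of all tested genes 48.2% and 36.3% were higher and lower in MHCC-97H, and 50.1% and 34.7% in MHCC-97L. SLIT2, the ligand of Robo receptors, was at 0.01 to 0.06 FPKM in controls and 14.17 to 24.42 with Flag-OGT. RGMA, a ligand of neogenin, was at 0.03 to 0.07 against 20.27 to 35.97, and UNC5B, a netrin receptor, at 0.03 to 0.42 against 9.6 to 25.57. NTN1, the founding netrin, was at 0 to 0.06 against 7.15 to 13.34. NTN4, a netrin of basement membranes, was the one that fell, from 31.14 and 33.84 to 1.17 and 1.24 in MHCC-97H and from 15.28 and 15.26 to 0.57 and 0.7 in MHCC-97L. SLIT2, RGMA, UNC5B, NTN1, UNC5A, SLIT1 and NTNG2 reach the filter through the Flag-OGT libraries alone, so these counts are a description too.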

How the data were processed

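RNA of 8 libraries, 2 in each of 4 groups, had been extracted with Trizol and made into cDNA with a SMARTer kit, per the labels' protocols. The authors deposited FPKM per gene, rounded to 2 decimals; the reads behind each value, and hence the depth, are unknown. The submitters' processing notes name Bowtie2, HISAT2 2.1.0, RSEM 1.2.4, DESeq2 1.18.1 and hg19; the sources used here do not give which of them made the FPKM values. Of 18928 features, 26 whose symbol had become a date were left out (at most 0.1% of summed FPKM), and 55 carry a number in place of a symbol. Members were found by symbol. The members and lists were chosen with earlier results of these data known.

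Log2(FPKM + 1) of the 13553 genes with a mean of 0.5 FPKM or more was fitted over all 4 groups with limma 3.58.1 in R 4.3.3 (mean-variance trend, 4 residual degrees of freedom), with Benjamini-Hochberg adjustment over all tested genes. The fitted difference understates the change of low genes. Fold changes are ratios of mean FPKM and are not given against groups at or near 0. Flag-OGT libraries were compared with controls in MHCC-97H and in MHCC-97L, these effects with each other, and the lines with each other, once without and once with Flag-OGT. Members with a group mean of 5 FPKM or more are given in every library and the others by range; from each partner list up to 3 called genes at either end in each line, with libraries that did not overlap, are named. Alternatives changed the pseudocount to 0.1, the filter (none, or 2 FPKM), the scaling (common sum, median of ratios, quantile), the trend, the samples fitted, the replicate block, and each library in turn. The script was tested on simulated data. Promoters are from RefSeq (GRCh38.p14), another build than the data's. Tables used Python 3.11.15, pandas 2.3.3, numpy 2.4.6 and matplotlib 3.10.9. The ChIP-seq samples of the series are not analysed here.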

Additional observations from a re-analysis of the deposited data

Results flagged for a closer look

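The Flag-OGT difference was unequal between the lines, by limma's test of the difference itself, for the members that follow, with the difference of MHCC-97H minus that of MHCC-97L on the log2 scale. Among receptors it was 1.52 for PLXND1, 1.35 for EPHB1, 1.28 for PLXNA3, 1.22 for EPHA8, 1.11 for PLXNB2, 0.98 for both EPHA6 and EPHB4, 0.85 for EPHA3, 0.61 for EPHA4, 0.58 for PLXNB1, 0.56 for EPHB3 and 0.44 for PLXNB3. It was negative for NRP1 at -1.97, EPHA2 at -0.52, PLXNA2 at -0.48 and EPHB6 at -0.33. A positive value stands for a larger rise in MHCC-97H for EPHA8, and for a smaller fall in that line for PLXND1.

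Among ephrins it was 1.41 for EFNB3, 1.27 for EFNA1, 1.17 for EFNA2, 1.12 for EFNB1, 0.78 for EFNB2 and 0.70 for EFNA3. Among semaphorins it was 1.92 for SEMA3B, 1.54 for SEMA4F, 1.02 for SEMA4G, 1.01 for SEMA4D, 0.76 for SEMA6B, 0.66 for SEMA7A, 0.52 for SEMA4B, 0.46 for SEMA3G, 0.39 for SEMA4C, 0.38 for SEMA4A, 0.30 for SEMA3F and -0.38 for SEMA3A. The calls of EPHA4, EPHB6, SEMA3A, SEMA3F and SEMA4A were lost under at least 1 alternative, and those of the other 29 members were kept under all that were run.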

How the results depend on the processing

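All 43 calls of Flag-OGT against control in MHCC-97H were kept under every alternative that gave a value, 40 of 44 in MHCC-97L (not EPHB1, SEMA4G, SEMA7A and PLXNA1), 29 of 34 for the difference between lines, 23 of 33 between the control lines and 22 of 36 between the Flag-OGT lines. Among the tested members, 14 reach the filter through the Flag-OGT libraries alone and 2 through the controls alone. The filter favours a difference in these, so a kept call adds no support for it. With a pseudocount of 0.1, 3 members instead of 5 were lower in the difference between lines and 21 instead of 13 were higher by 2-fold. With that pseudocount, 2 instead of 1 were higher and 12 instead of 3 lower by 2-fold in the MHCC-97H controls, and 7 instead of 4 were higher by 2-fold between the Flag-OGT lines. Without 1 library the 3 lower by 2-fold between the control lines ranged from 3 to 5, and the 5 lower between the Flag-OGT lines from 2 to 6. These 5 were 2 with a common sum, 2 with median-of-ratios scaling and 3 with the compared groups alone. With no filter on low values 16 instead of 10 genes of the other guidance families were higher in MHCC-97H. Between the control lines all genes were 4674 higher and 4230 lower with a common sum, and between the Flag-OGT lines 5932 and 3547. PLXNA1 in MHCC-97H, -0.08 and not called, was 0.01 without replicate 1 of the controls and -0.18 without replicate 2, and SEMA7A between the control lines was 0.02 with quantile normalization. The cause of these changes was not tested. With the replicate block, members were 27 higher and 16 lower in MHCC-97H, 23 and 21 in MHCC-97L, 29 and 5 for the difference, 8 and 23 between controls and 30 and 4 between Flag-OGT lines. Libraries with the same number deviated together at correlations of -0.206 to 0.309, so the numbers were not taken as pairs. Depth is unknown, so the precision of values near 0 cannot be given.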
